A study of Mus musculus with 4 samples.

Results

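This account covers 8 sialyltransferase genes, St8sia6, St8sia1, St8sia4, St3gal1, St3gal2, St3gal4, St3gal6 and St6gal1, together with Gcnt1, a branching enzyme of O-glycans. The 9 genes were taken by name, and each was read from the probe set paired with its symbol alone that had the highest mean over the 4 arrays. All 9 were measured, among 19938 genes tested. RNA came from naive CD8 T cells sorted by flow cytometry out of the spleens of BALB/c mice, which had the genotype KLF13 KO (2 arrays) or wild type (2 arrays); the labels give no treatment, age or further allele for either group. The arrays were of the 1-colour Affymetrix kind with 1 sample on each, and the series asks how KLF13, a zinc-finger transcription factor, bears on memory-like CD8 T cells. Neither the deleted part of Klf13 nor the way the allele was made is stated by the labels. They also leave unsaid whether 2 arrays of the same genotype stand for different mice, and every p-value below therefore reflects a spread between arrays that may be technical only.

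Sialyltransferases are Golgi enzymes that cap glycan chains with sialic acid. The ST3Gal and ST6Gal enzymes join it to galactose, the former on O-glycans, N-glycans and lipids and the latter mainly on N-glycans, while the ST8Sia enzymes add it to a sialic acid already in place. On CD8 T cells these caps are known to hide galactose from galectins and plant lectins, to complete ligands of selectins and to serve as ligands of Siglec receptors, and they are remodelled when naive cells become effector or memory cells.

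Of the 9 genes, 1 rose in the knockout, 0 fell and 8 did not pass the test (limma moderated test with Benjamini-Hochberg adjustment over all 19938 genes, threshold 0.05). Over all genes tested 2.25% passed, 1.19% higher and 1.05% lower. The gene that rose was St8sia6, 1.46-fold. St3gal6 had the next smallest p and was lower in both knockout arrays, but did not pass. The median log2 fold change, knockout minus wild type, was -0.003 over the 9 genes and 0.015 over all genes, and the median size of the change regardless of sign was 0.042 over the 9 and 0.104 over all. At an unadjusted p under 0.05 the limma test passed 2 of the 9 genes, against 16.6% of all genes.

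The library labels were checked on Klf13, whose values of 5.46 and 5.43 in the knockout arrays lay below 7.01 and 7.15 in the wild-type arrays on the log2 scale; a probe set outside the deleted part would check nothing. The CD8 chains Cd8a and Cd8b1 lay between 10.9 and 11.3 in all 4 arrays, while Cd4 lay between 3.47 and 4.07. Of 8 measured T cell and CD8 markers and 5 CD4 T cell markers, 0 passed in either direction. Markers of other cells did move: 2 of 9 B cell markers, 4 of 11 neutrophil markers, 5 of 11 myeloid and dendritic markers and 3 of 6 progenitor, platelet and erythroid markers rose, and 0 of these fell. Of 8 NK cell markers 1 rose and 1 fell. The former, Tyrobp, is also 1 of the 5 myeloid and dendritic markers that rose. The latter, Eomes, is known to be expressed by CD8 T cells too. Knockout replicate 1 stood below knockout replicate 2 in 79.9% of the 9969 genes with the higher mean levels, where wild-type replicate 1 stood below wild-type replicate 2 in 48.7%. The same order of the knockout arrays was found in 9 of the 9 genes described here, of which all but Gcnt1 are among those 9969. Over all 19938 genes the shares were 54.9% in the knockout and 48.9% in the wild type.

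**Figure D1:**
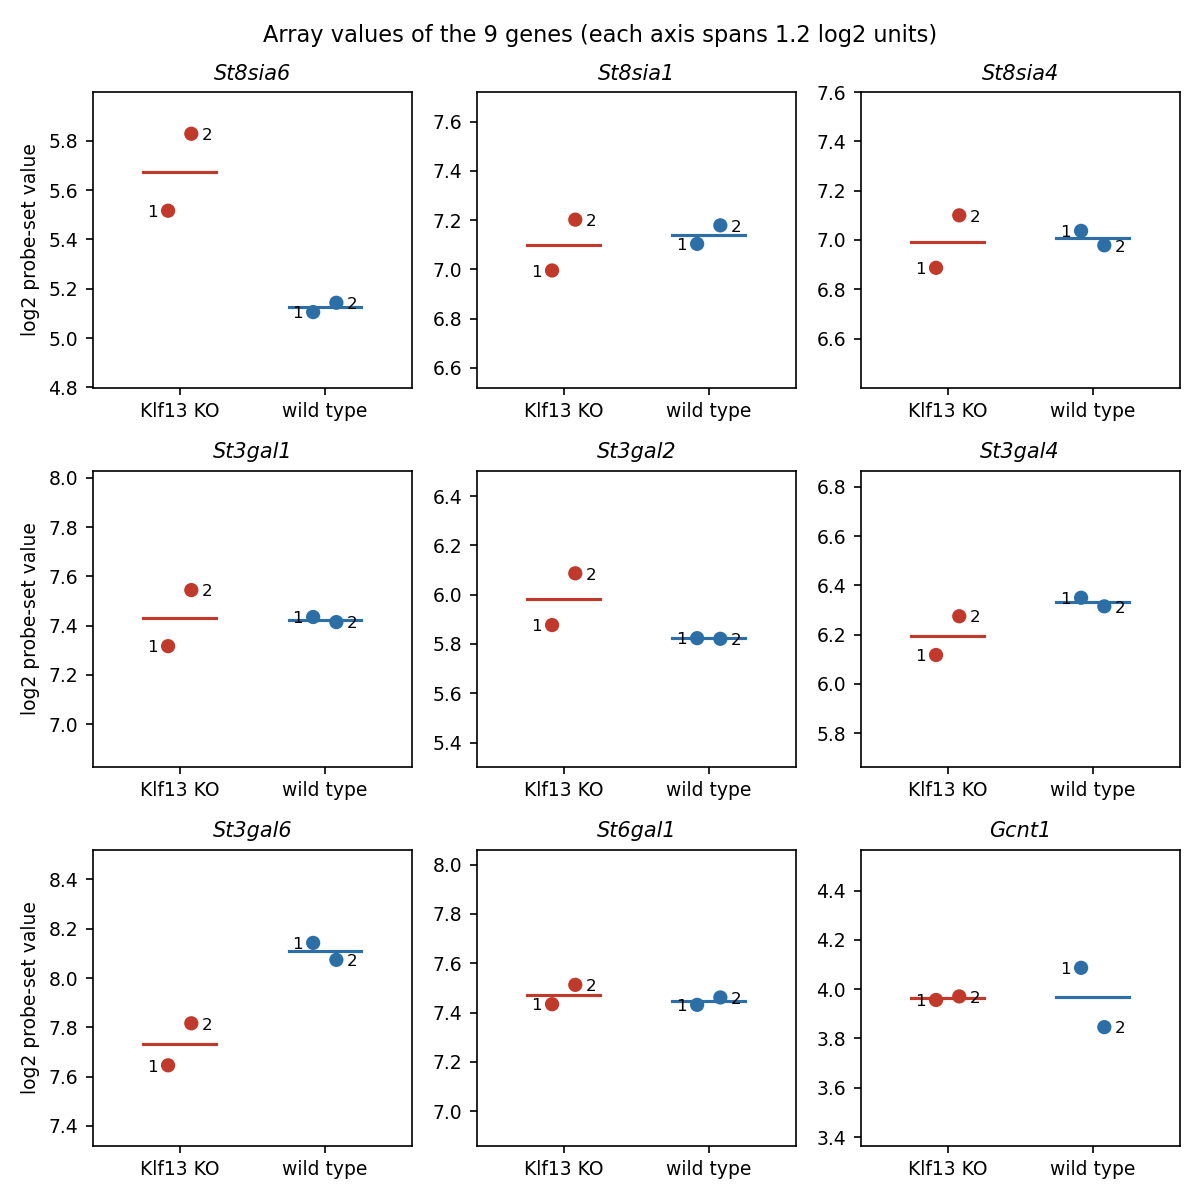
Deposited log2 probe-set values of the 9 genes (vertical axes, each spanning the same distance) in the Klf13 knockout arrays (red) and the wild-type arrays (blue); numbers beside the points are the replicate numbers and horizontal lines the group means. St8sia6 lies higher and St3gal6 lower in both knockout arrays, by gaps of 0.374 and 0.258 between the nearest arrays of the groups, and knockout replicate 2 lies above replicate 1 in all 9 panels.

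St8sia6, on chromosome 2, encodes an enzyme that adds a second sialic acid to a first, chiefly on O-glycans, and so makes short disialyl caps that are ligands of Siglec receptors. Its log2 values were 5.52 and 5.83 in knockout replicates 1 and 2 and 5.11 and 5.14 in wild-type replicates 1 and 2. Both knockout arrays lay above both wild-type arrays, and the lower knockout array stood 0.374 above the higher wild-type array. The group means were 5.67 ± 0.22 and 5.12 ± 0.027 (SD, n = 2), which gave a log2 fold change of 0.55 (SE 0.11, 95% interval 0.29 to 0.80, limma adjusted p = 0.0388). Ranked by p it stood at place 365 of all genes, in the last part of the 448 that passed. A change of at least 0.5 in either direction was found in 1.98% of all genes. The call was lost when wild-type replicate 1 was left out (log2 fold change 0.53, limma adjusted p = 0.0832) and when all 35556 probe sets were tested singly (limma adjusted p = 0.235).

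Some markers of other cells differed between the groups in the same direction as St8sia6, and others did not. On the linear scale the summed level of 9 B cell markers was 1145 and 1164 in the knockout arrays against 765 and 788 in the wild-type arrays, most of it from the 2 that rose, Ighm and Cd74 (760 and 728 against 441 and 439). The other 7 B cell markers summed to 385 and 437 against 323 and 349, with Ms4a1 (log2 fold change 0.01) and Cd22 (-0.05) nearly level. The sum of 11 neutrophil markers, 915 and 999 against 291 and 339, came almost wholly from the granule protein genes Mpo, Elane, Ctsg and Prtn3, which rose. The other 7 did not pass, summed to 72.0 and 64.6 against 61.1 and 61.4, and included Ly6g at -0.12. The sum of 11 myeloid and dendritic markers was 272 and 304 against 194 and 186. The 5 that rose gave 177 and 197 against 108 and 111, and the other 6 gave 94.3 and 106 against 85.7 and 74.9. That of 6 progenitor, platelet and erythroid markers was 712 and 789 against 525 and 526. The 3 that rose gave 177 and 200 against 90.8 and 94.7. The 3 that did not pass, Kit among them, gave 535 and 589 against 434 and 431. The sum of 8 NK cell markers was lower, at 203 and 215 against 376 and 373. Of the 2 that passed, Eomes fell (log2 fold change -1.45) and Tyrobp rose (0.62). These 2 summed to 137 and 137 against 299 and 303. The other 6 NK cell markers overlapped, at 65.5 and 78.4 against 77.5 and 70.1. The lower sum of the 8 thus came from Eomes, which CD8 T cells can also express. Whether NK cells or CD8 T cells gave the lower Eomes level was not tested. The sum of 5 CD4 T cell markers overlapped too, at 140 and 155 against 147 and 139. RMA values have no true 0, so none of these markers can be called absent. The part of such cells in the change of St8sia6 was not tested, and in bulk RNA more cells that hold a transcript cannot be told apart from more of it per cell.

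St8sia1 encodes the enzyme that turns the ganglioside GM3 into GD3. On chromosome 6, it gave 6.996 and 7.20 in the knockout and 7.10 and 7.18 in the wild type on the log2 scale, so that the knockout arrays lay on either side of the wild-type pair. Its log2 fold change was -0.04 (95% interval -0.27 to 0.19, limma adjusted p = 0.881). St8sia4 encodes a polysialyltransferase, which extends long chains of sialic acid on a small number of carrier proteins such as NCAM. Its log2 values were 6.89 and 7.10 in the knockout and 7.04 and 6.98 in the wild type, again with overlapping groups, and its log2 fold change was -0.01 (95% interval -0.24 to 0.21, limma adjusted p = 0.963). For both genes the interval ends below 0.29, the lower end of that of St8sia6, but intervals set side by side do not test a difference between genes. The sign of both small differences turned when knockout replicate 1 was left out, and when the genes were quantile-normalized once more.

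Whether the change of St8sia6 differed from those of its relatives was tested on within-array differences. The log2 fold change of St8sia6 exceeded that of St8sia1 by 0.591 and that of St8sia4 by 0.563. In the exact permutation test of the array labels (two-sided) both gave p = 0.333, the smallest that 2 arrays against 2 allow, so this design cannot reach the threshold by that test. In total 5 pairs of members were compared in this way, each with an adjusted exact p = 0.333.

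St3gal6 sialylates the galactose at the end of N-acetyllactosamine chains and has a part in making selectin ligands. On chromosome 16, it was measured at 7.65 and 7.82 in the knockout and 8.14 and 8.07 in the wild type on the log2 scale. The knockout pair lay wholly below the wild-type pair, with 0.258 between the nearest arrays. The log2 fold change was -0.38 (SE 0.099, 95% interval -0.60 to -0.16), with an unadjusted p = 0.00342 and an adjusted p = 0.0942 in the limma fit, so the gene did not pass. On all 4 arrays it did pass in some of the 11 alternatives. These were the 9969 brighter genes (limma adjusted p = 0.0465) and centring each array on its median (-0.46, 0.0198). The others were a variance trend with robust moderation (0.0177) and the replicate number as a block (0.0232). In these fits 6.08%, 5.46%, 4.17% and 5.95% of all genes tested passed, against 2.25% in the fit reported above. Without knockout replicate 2 the log2 fold change was -0.46. The sign was negative in all 11 alternatives. With 1 knockout array left out the spread within a genotype comes from the wild-type pair and from the pooling over genes. With 1 wild-type array left out the standard error was 0.166 for each of the genes described here. That spread therefore came from the pooling over genes alone. The replicate block likewise gave each of them a standard error of 0.115, so its call for St3gal6 used no spread of that gene's own. In fits without 1 array the lone array is assumed to vary in the same way.

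**Figure D2:**
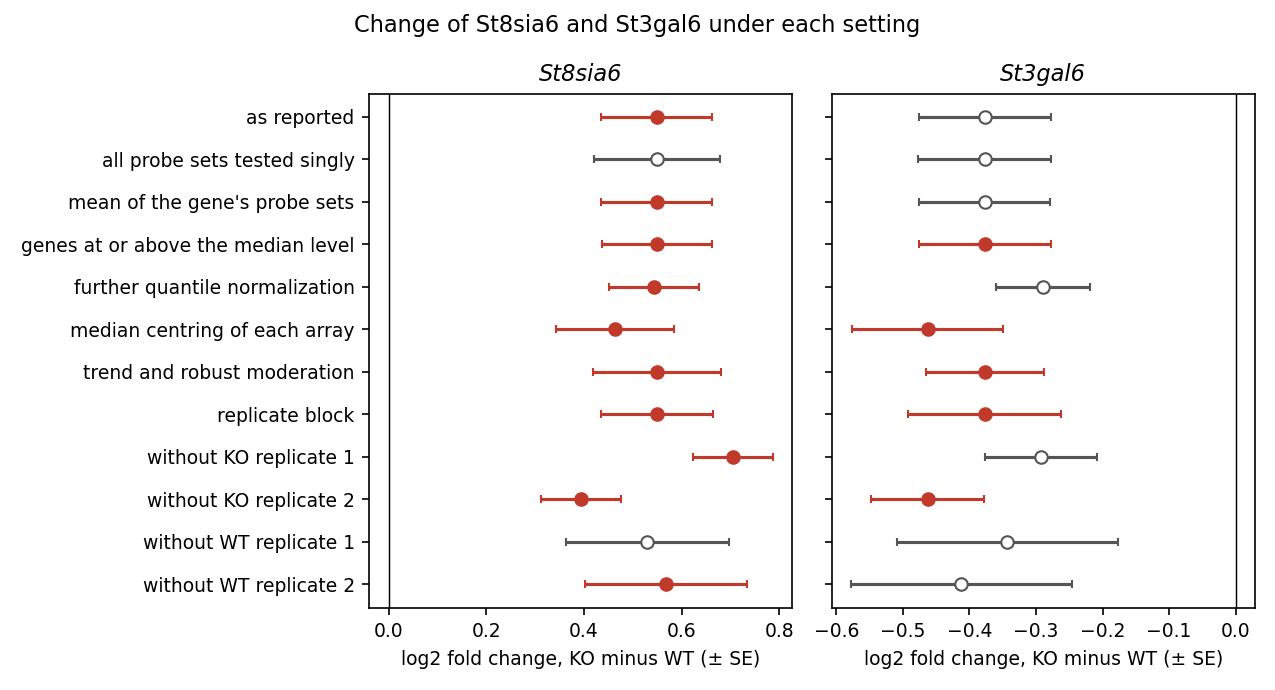
Log2 fold change of St8sia6 (left) and St3gal6 (right), knockout minus wild type, with its limma standard error (horizontal bars), as reported and under each of 11 alternatives; filled red points passed at an adjusted p under 0.05 and open grey points did not. St8sia6 lies between 0.393 and 0.705 and St3gal6 between -0.463 and -0.290 over the 11 alternatives. Fits without 1 array leave a lone array in that genotype, so their points rest on the spread of the other genotype or on pooling over genes. The standard errors of the replicate block rest on pooling over genes alone.

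Upstream sequence was taken for the member that rose and for the one next to it in p, since factors of the KLF family are known to bind GC boxes and CACC boxes. RefSeq's promoter table for GRCm38.p6 held windows for 7 of the 9 genes, with 12 annotated starts; St3gal1 and St3gal2 had none there. The 250 bases before the start are given from 5′ to 3′ on the gene's strand, in lower case, with every GGGCGG and CACCC on either strand in capitals. The St8sia6 window is chr2:13793521-13793770 on the minus strand, and the St3gal6 window, of the second of its 2 starts, is chr16:58523427-58523676 on the minus strand.
St8sia6: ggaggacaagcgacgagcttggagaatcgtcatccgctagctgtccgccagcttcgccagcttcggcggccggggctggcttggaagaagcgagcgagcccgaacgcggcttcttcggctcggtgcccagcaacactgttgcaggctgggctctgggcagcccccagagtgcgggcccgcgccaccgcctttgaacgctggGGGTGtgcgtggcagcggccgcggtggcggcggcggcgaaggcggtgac
St3gal6: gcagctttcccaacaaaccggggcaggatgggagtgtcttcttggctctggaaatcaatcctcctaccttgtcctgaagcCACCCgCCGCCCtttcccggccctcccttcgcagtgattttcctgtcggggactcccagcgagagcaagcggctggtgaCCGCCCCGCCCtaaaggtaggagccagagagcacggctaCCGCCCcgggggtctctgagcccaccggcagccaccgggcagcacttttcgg
The St8sia6 window was 70.8% G and C and held 0 matches to GGGCGG and 1 to CACCC, on the reverse strand 49 to 45 bases before the start. The St3gal6 window was 64.4% G and C and held 4 matches to GGGCGG, all on the reverse strand and 2 of them sharing 1 base, and 1 to CACCC; the window of its other start, at 34.8% G and C, held 0 of either. Of the 32851 windows in all, 32.7% held GGGCGG and 52.0% held CACCC, and the median G and C content was 52.4%. Of the 12 windows of the genes described here 4 held GGGCGG and 10 held CACCC. St6gal1 and Gcnt1 each had several starts, and every one of their windows held CACCC, so the 12 windows do not stand for 12 genes. These matches describe letters and not binding, which was not measured here.

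The other ST3Gal genes differed less between the groups. St3gal1 encodes the enzyme that caps core 1 O-glycans, and its loss in mice is known to unmask the lectin-binding galactose of naive CD8 T cells and to shorten their survival. Its log2 values were 7.32 and 7.54 in the knockout and 7.43 and 7.41 in the wild type, with overlapping groups and a log2 fold change of 0.01 (95% interval -0.22 to 0.24, limma adjusted p = 0.986). A second, dimmer probe set of St3gal1, at a mean of 5.26, gave 0.04. The sign of St3gal1 turned after median centring and without knockout replicate 2 or wild-type replicate 2.

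St3gal2, whose enzyme sialylates the same galactose on gangliosides and O-glycans, gave 5.88 and 6.09 in the knockout and 5.82 and 5.82 in the wild type. The knockout arrays lay above the wild-type arrays, but replicate 1 by little, and the log2 fold change of 0.16 did not pass (95% interval -0.07 to 0.39, limma adjusted p = 0.482); it lay between 0.054 and 0.265 with single arrays left out, the former without knockout replicate 2 and the latter without knockout replicate 1. St3gal4, which acts on N-acetyllactosamine as St3gal6 does, gave 6.12 and 6.27 in the knockout and 6.35 and 6.31 in the wild type. Its groups did not overlap either, and its log2 fold change of -0.14 did not pass (95% interval -0.35 to 0.08, limma adjusted p = 0.533); it lay between -0.215 without knockout replicate 2 and -0.058 without knockout replicate 1. The log2 fold change of St3gal6 minus those of St3gal1, St3gal2 and St3gal4 gave -0.383, -0.537 and -0.241, and each difference had p = 0.333 in the exact permutation test, again the smallest that can be reached. In all, the groups did not overlap for 4 of the 9 genes, beside 47.6% of all genes. For 2 of them both knockout arrays were higher (24.4% of all genes) and for 2 both were lower (23.2%).

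St6gal1 encodes the main enzyme that joins sialic acid to the sixth carbon of galactose on N-glycans, the linkage read by the B cell lectin CD22. Its log2 values were 7.43 and 7.51 in the knockout and 7.43 and 7.46 in the wild type. The groups overlapped, and the knockout pair differed little (SD 0.056, n = 2). The log2 fold change was 0.03 (95% interval -0.18 to 0.23, limma adjusted p = 0.918). B cells are also known to express this gene, and their part in its level was not tested. Its sign turned after median centring and without knockout replicate 2.

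Gcnt1 is no sialyltransferase: it adds the branch that turns core 1 into core 2 O-glycans, on which the sialylated ligands of P-selectin are built, and it is known to be induced in activated CD8 T cells. It had the lowest values of the 9 genes, 3.96 and 3.97 in the knockout and 4.09 and 3.85 in the wild type, with overlapping groups and the wider spread in the wild type (SD 0.17, n = 2). Its mean lay at percentile 39.9 of all genes on these arrays, where RMA compresses folds, though the level also reflects how well a probe set binds. The log2 fold change was -0.003 (95% interval -0.24 to 0.23, limma adjusted p = 0.994), and its sign turned without knockout replicate 1 or wild-type replicate 1.

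**Figure D3:**
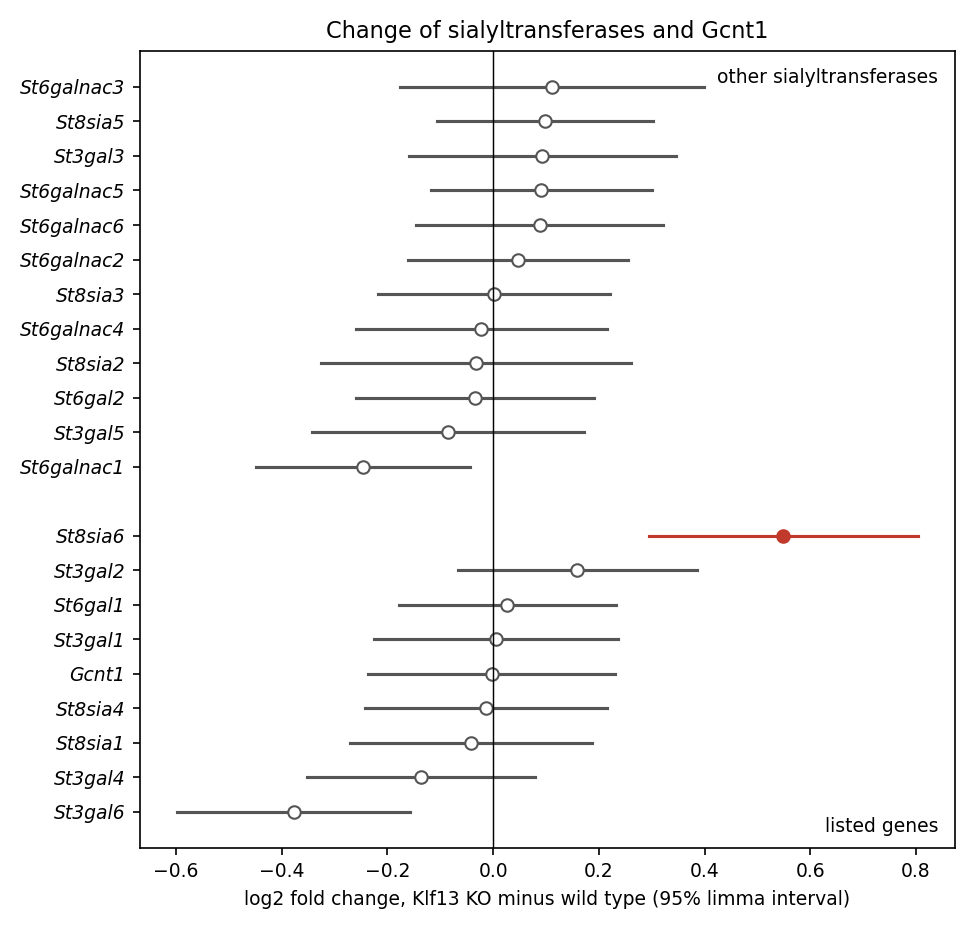
Log2 fold change, knockout minus wild type, with its 95% limma interval (unadjusted) for the 9 genes described here (lower block) and the 12 other sialyltransferases (upper block); the filled red point passed at an adjusted p under 0.05 and open grey points did not. St8sia6 is the one gene of both blocks that passed, and the intervals of St3gal6 and St6galnac1 lie below 0 although their adjusted p are 0.0942 and 0.216.

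Of the 12 other sialyltransferases of the mouse, 0 rose and 0 fell, and 1 had an unadjusted p under 0.05 in the limma test. The values ranged from -0.25 to 0.11 with a median of 0.025. St6galnac1, which sialylates the innermost sugar of O-glycans, gave 3.04 and 2.99 in the knockout and 3.26 and 3.27 in the wild type (log2 fold change -0.25, limma adjusted p = 0.216), all at the dim end of the arrays. St8sia5 (0.10) and St6galnac5 (0.09), with the next smallest p, were also dim. St3gal5, which makes the ganglioside GM3 that St8sia1 uses, differed by -0.09.

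A gene of the supply of sialic acid also changed. Of 8 genes of sialic acid synthesis and transport, 0 rose, 1 fell and 7 did not pass (median -0.084). The gene that fell was Cmah, whose enzyme hydroxylates the sugar nucleotide of N-acetylneuraminic acid and so makes N-glycolylneuraminic acid, the form that naive mouse T cells are known to carry and to lose on activation. Its log2 values were 8.72 and 8.81 in the knockout and 9.23 and 9.23 in the wild type. Both knockout arrays lay below the wild-type pair by at least 0.425, and the log2 fold change was -0.47 (SE 0.092, limma adjusted p = 0.0303). The call was lost without knockout replicate 1 (limma adjusted p = 0.0830), without wild-type replicate 1 (0.179) or replicate 2 (0.153), after a further quantile normalization (0.0504) and with all probe sets tested singly (0.167), while the value stayed between -0.558 and -0.394.

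The other genes of the supply did not pass. Nanp, the phosphatase that releases free sialic acid, differed by -0.30 (limma adjusted p = 0.154), and Renbp, which interconverts precursor sugars, by 0.30 (0.204). Gne, the first enzyme of sialic acid synthesis, differed by 0.09, Cmas, which activates the sugar, by -0.08, and Slc35a1, which carries it into the Golgi, by -0.20. Of 7 sialidases and sialic acid esterases and acetylases, 0 passed (median 0.064). The lysosomal sialidase Neu1 showed the largest of these differences, at 5.69 and 6.27 in the knockout and 6.31 and 6.31 in the wild type; knockout replicate 1 alone lay far below (log2 fold change -0.33, limma adjusted p = 0.329). Casd1, which acetylates sialic acid, differed by 0.25 (limma adjusted p = 0.224).

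Of the further lists of glycan enzymes 0 genes passed in either direction. That held for 17 genes of O-glycan cores and extension (median 0.047, from -0.21 to 0.17), for 8 of selectin ligand fucosylation and sulfation (median 0.023), for 13 of N-glycan branching (median -0.051) and for 9 of glycosphingolipids (median -0.032). The last list, named for synthesis, also holds the lysosomal genes Hexa, Glb1 and Gm2a, which serve breakdown, and Hexa had its smallest p (log2 fold change 0.28, limma adjusted p = 0.195). Fut7, the fucosyltransferase that completes sialyl Lewis x on leukocytes, gave 4.89 and 4.53 in the knockout and 4.31 and 4.35 in the wild type (log2 fold change 0.39, limma adjusted p = 0.149). B3gnt8 (0.34) and the branching enzyme Mgat5 (0.26) were higher and B4galnt1, the GM2 and GD2 synthase, lower (-0.26) in both knockout arrays, without passing. C1galt1, which makes the core 1 chain that St3gal1 and Gcnt1 share, differed by -0.14.

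Among 12 proteins that carry such glycans, 1 rose, 0 fell and 11 did not pass (median 0.016). Cd34, a sialomucin of progenitors and endothelium that is also counted among the progenitor markers above, rose from 5.04 and 4.97 in the wild type to 6.56 and 6.77 in the knockout (log2 fold change 1.66, limma adjusted p = 3.75e-05). The main sialomucins of T cells did not pass: Spn, which encodes CD43, differed by 0.10 and Selplg, the P-selectin ligand, by 0.12. Ncam1 and Nrp2, carriers of polysialic acid, were dim and differed by 0.16 and 0.19. Of 13 lectins that bind these glycans 0 passed (median 0.073). Lgals1, a galectin whose binding sialic acid can block, was nearest, at 9.69 and 9.76 in the knockout and 9.28 and 9.36 in the wild type (log2 fold change 0.41, limma adjusted p = 0.0567).

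**Figure D4:**
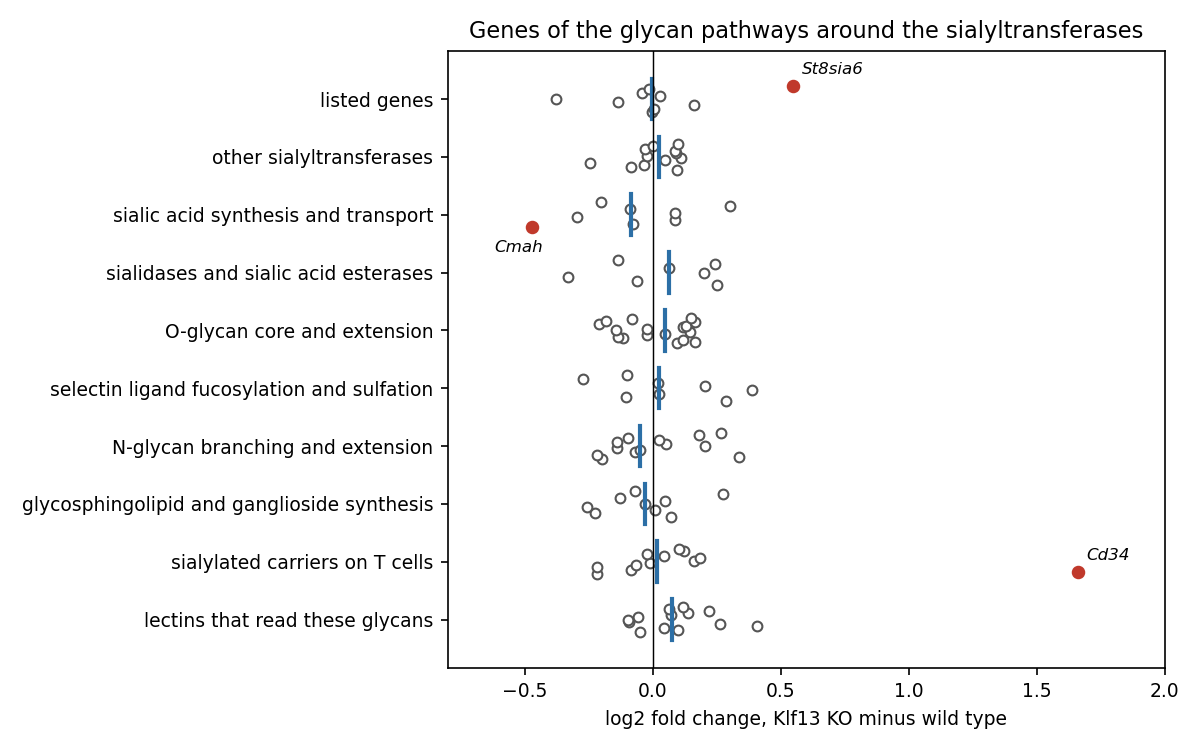
Log2 fold changes, knockout minus wild type, of single genes (points) in the listed genes and 9 further groups of glycan genes (rows), with the median of each group as a blue line; filled red points passed at an adjusted p under 0.05. St8sia6, Cmah and Cd34 are the 3 genes that passed, and the medians lie between -0.084 and 0.073.

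The genes whose profiles over the 4 arrays lay nearest to that of St8sia6 were named by the root mean square distance of values centred on each gene's own mean, among 17119 genes. They were Islr (distance 0.019), the glutamate receptor subunit gene Gria3 (0.021), Derl3 (0.025), which acts in the degradation of misfolded proteins, and Il17rb (0.027), a receptor chain for IL-25. Islr gave 4.73 and 5.09 in the knockout and 4.32 and 4.36 in the wild type, a log2 fold change of 0.57. As with St8sia6, knockout replicate 2 was the highest array for each of the 4. With 4 arrays such likeness is a description. These genes were picked for values close to those of a gene that passed, so their own outcome in the limma test adds no support. Of them 3 passed, while Gria3 did not (limma adjusted p = 0.0569).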

How the data were processed

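The deposited table holds a log2 value for each probe set and array. The submitters' processing notes name RMA and Partek without versions. RMA corrects background, quantile-normalizes the arrays and summarises each probe set, so a shift of most genes in one direction would be largely removed. The median over the 19938 genes still differed between arrays, at 4.71 and 4.66 in the knockout and 4.59 and 4.61 in the wild type. GEO's platform annotation paired 21789 of 35556 probe sets with 1 symbol, 1621 with several and 12146 with none, and gene identifiers led to current RefSeq symbols for 21698 of the first kind. The files name no genome build. The probe set with the highest mean was kept for each of 19938 genes, which were fitted with limma 3.58.1 under R 4.3.3 (lmFit, then eBayes; a model with genotype alone; two-sided p adjusted by Benjamini-Hochberg over all genes; no filter on level), after the fit was tested on simulated data. With 8.06 prior degrees of freedom each test leaned on the spread pooled over genes, and the number of arrays limits the precision. No detection calls were used. The members and gene lists were chosen with earlier results of these data known. Named were the 9 members, Klf13, the other sialyltransferases with the 3 smallest p, and from each pathway list every gene that passed and up to 2 with the smallest p, plus the 4 nearest profiles of each member that passed; Gne, Cmas, Slc35a1, C1galt1, St3gal5, Spn, Selplg, Ncam1, Nrp2, B3gnt8, Mgat5, B4galnt1, Neu1, Cd8a, Cd8b1 and Cd4 were named for their roles or after their values were seen. Genes on the lists without a probe set paired with their symbol alone were not analysed here. The alternatives were a test of every probe set, averaging the probe sets of each gene, restriction to the 9969 brighter genes, another quantile normalization, median centring, a variance trend with robust moderation, a block for the replicate number, and each array left out in turn.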

Additional observations from a re-analysis of the deposited data

How the results depend on the processing

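Of the 9 genes, 0 passed when all probe sets were tested singly, against 1 higher (St8sia6) in the other 6 alternatives on all 4 arrays, and 0 to 1 passed as higher when an array was left out, which leaves a lone array assumed to vary like the other genotype's pair. As lower, 1 gene (St3gal6) passed among the 9969 brighter genes, after median centring, with trend and robust moderation and with the replicate block, and 0 to 1 when an array was left out. Over all genes the count of 448 became 39 with all probe sets, 1088 after median centring, 831 with trend and robust moderation and 1187 with the replicate block, and lay between 264 (without knockout replicate 1) and 1536 (without knockout replicate 2), with 277 without wild-type replicate 1. The share of calls that were higher in the knockout was 53.1%, but 21.8% after median centring. Small differences changed sign: St8sia1 (0.044) and St8sia4 (0.074) after a further quantile normalization, St3gal1 (-0.08) and St6gal1 (-0.059) after median centring. With an array left out the values ran from -0.146 to 0.061 for St8sia1, -0.121 to 0.092 for St8sia4, -0.108 to 0.12 for St3gal1, -0.012 to 0.066 for St6gal1, -0.123 to 0.117 for Gcnt1, 0.054 to 0.265 for St3gal2 and -0.215 to -0.058 for St3gal4. The cause was not tested. St3gal2, St3gal4, St3gal6 and St8sia6 kept their sign in all 11 alternatives, and Gcnt1, below the median level, had no value among the brighter genes. Replicate numbers stand in the labels of both groups. The deviations of same-numbered arrays, however, correlated at 0.007 across genes, so nothing shows that the numbers pair the arrays. The block on these numbers gave a standard error of 0.115 for each of the 9 genes. Its calls for St8sia6 and St3gal6 therefore used no spread of the gene's own.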
